A study of Mus musculus with 6 samples.

Results

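The acute-phase proteins measured here are 9 genes chosen by name, the serum amyloid A genes Saa1, Saa2, Saa3 and Saa4, lipocalin 2 (Lcn2), the orosomucoid genes Orm1 and Orm2, haptoglobin (Hp) and C-reactive protein (Crp), out of 24421 gene symbols in the count table. The rule names the genes and uses no measured value, but the genes were picked for study with earlier results of these data known. All 9 are also among the 24346 symbols of the FPKM table, in which counts are scaled to transcript length and library. The RNA came from liver endothelial cells (ECs) of female wild-type C57BL/6J mice, sorted by flow cytometry as CD31+CD45- cells, 50000 cells per sample. The 3 young samples were from mice aged 10 weeks and the 3 aged samples from mice aged 127, 131 and 136 weeks. No transgene or treatment was used, and the gate keeps every CD31+CD45- cell without separating sinusoidal from large-vessel ECs. The study left out animals with tumors visible by eye or with an enlarged liver or spleen. It made no pathological assessment, and its authors caution that disease in such old mice could have influenced the results.

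Acute-phase proteins are plasma proteins that the liver secretes in larger amounts during infection and injury. IL-6, acting through gp130, JAK kinases and STAT3, and IL-1 and TNF, acting through NF-kB and C/EBP factors, switch on their genes, above all in hepatocytes. Saa1 and Saa2 are carried on high-density lipoprotein, Saa3 is made mostly outside hepatocytes, for example in macrophages and fat, and Saa4 is made at a steady level. Lcn2 binds iron-loaded bacterial siderophores and is stored in neutrophil granules, but epithelial cells, hepatocytes, macrophages and ECs can also make it.

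The members lie in 5 places of the mouse genome (mm9, GENCODE genes). Lcn2 is at chr2:32240153-32243317 on the minus strand, Hp at chr8:112099030-112103072 on the minus strand and Crp at chr1:174628187-174630097 on the plus strand. The 4 Saa genes share 42.3 kb of chromosome 7 in the order Saa3, Saa4, Saa1 and Saa2, with Saa3 at chr7:53967368-53971046, Saa4 at chr7:53983387-53987913 and Saa1 at chr7:53995871-53998350, all on the minus strand, and Saa2 at chr7:54007203-54009684 on the plus strand. Orm1, at chr4:63005594-63009197, and Orm2, at chr4:63023483-63026912, lie with Orm3 in 21.3 kb on the plus strand of chromosome 4. All are annotated as protein-coding. The sequences before the starts of Lcn2, Saa1, Saa2 and Saa3 are shown because Lcn2 is the member that carries most of the counts, Saa1 and Saa2 are near-copies that face away from each other, and Saa3 had counts mainly in 1 aged sample. They are RefSeq sequences (table of build GRCm38.p6), each found once on its mm9 chromosome, written 5′ to 3′ on the gene's strand and ending at the base before the gene. Capitals mark matches on either strand to TTGCNNAA, the letters of a C/EBP-type site, where N is any base.
Lcn2 (chr2:32243318-32243509, minus strand): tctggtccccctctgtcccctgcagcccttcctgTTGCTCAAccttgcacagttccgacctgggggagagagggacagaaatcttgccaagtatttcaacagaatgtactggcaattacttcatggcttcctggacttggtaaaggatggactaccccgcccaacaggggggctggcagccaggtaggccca
Saa1 (chr7:53998351-53998600, minus strand): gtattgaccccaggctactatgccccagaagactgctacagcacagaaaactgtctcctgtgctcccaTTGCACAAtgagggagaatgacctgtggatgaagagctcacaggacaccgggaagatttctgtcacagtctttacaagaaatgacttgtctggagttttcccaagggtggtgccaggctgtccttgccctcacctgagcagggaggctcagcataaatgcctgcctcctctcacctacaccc
Saa2 (chr7:54006953-54007202, plus strand): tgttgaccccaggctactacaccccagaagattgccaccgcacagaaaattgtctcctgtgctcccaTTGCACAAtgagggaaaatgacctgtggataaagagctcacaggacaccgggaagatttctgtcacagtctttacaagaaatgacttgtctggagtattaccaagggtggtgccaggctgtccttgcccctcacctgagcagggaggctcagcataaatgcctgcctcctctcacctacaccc
Saa3 (chr7:53971047-53971296, minus strand): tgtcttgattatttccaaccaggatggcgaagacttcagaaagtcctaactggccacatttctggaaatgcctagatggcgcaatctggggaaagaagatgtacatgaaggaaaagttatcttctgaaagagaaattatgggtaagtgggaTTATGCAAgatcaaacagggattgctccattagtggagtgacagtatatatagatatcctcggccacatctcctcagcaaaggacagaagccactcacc
The Lcn2 sequence stops 58 bases before the RefSeq start, where the GENCODE gene begins. The match lay 216 to 209 bases before the RefSeq start of Lcn2, 182 to 175 bases before that of Saa1, 183 to 176 bases before that of Saa2 and, on the opposite strand, 99 to 92 bases before that of Saa3. A promoter entry was found for 7 of the 9 members, and 6 of these 7 held TTGCNNAA in 250 bases (Crp did not), against 9.56% of 32851 RefSeq promoters of the same length. The NF-kB consensus was in 0 of the 7 and in 7.25% of all promoters, and TTCNNNGAA, the letters of a STAT-type site, was in 0 of the 7 and in 7.02%. Different motifs did not overlap within a member, since TTGCNNAA was the only one of them found. These are matches of letters in short windows and say nothing about binding. The Saa1 and Saa2 promoters were identical in 94.8% of aligned columns and their transcripts in 92.7%, while the Saa1 and Saa3 transcripts were identical in 65.4%.

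Total counts ran from 23001556 to 31651817 per sample, so that 3 counts, the upper limit that a count of 0 allows, stood for 0.0946 to 0.135 CPM. CPM are counts relative to library size, with the library sizes adjusted by TMM factors. This floor covers counting error only, because the reads carried no molecular identifiers. Endothelial identity was checked on 10 marker genes, whose summed CPM was 17798 to 19175 in young and 9914 to 13891 in aged ECs, with the ages not overlapping. Pecam1, which encodes the sorted CD31 protein, lay at 1366 to 1635 CPM in all 6 samples, and Stab2, a marker of sinusoidal ECs, at 2901 to 3198 CPM in young and 504 to 1759 CPM in aged ECs. Lars2 and Rn45s, symbols that collect ribosomal RNA reads, took 4.68% to 5.53% of the counts in 4 libraries but only 1.29% in that of young replicate 3 and 0.960% in that of the 127-week sample. These 2 libraries are called ribosomal-low here and the other 4 ribosomal-high, and differences between ages within each set are given where a result turns on them, as differences of mean log2(CPM + 0.1).

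Per transcript length, Lcn2 was the highest member, with a mean of 57.6 FPKM in young and 156 FPKM in aged ECs, and Hp came next with 10.8 and 8.45 FPKM. Below them the order differed between ages. In young ECs Orm1 had a mean of 3.73 FPKM, Saa2 and Saa1 of 3.26 FPKM each, Crp of 2.86, Saa4 of 0.411, Saa3 of 0.261 and Orm2 of 0.0581 FPKM. In aged ECs Crp had a mean of 2.83 FPKM, Saa3 of 1.56, Orm1 of 1.17, Saa2 of 0.845, Saa1 of 0.807, Saa4 of 0.115 and Orm2 of 0.0429 FPKM. The place of Saa3 rested on the 136-week sample, with 4.47 FPKM, without which its mean over 5 samples was 0.199 FPKM. Lcn2 exceeded Hp in 6 of 6 samples (two-sided exact permutation test of paired signs, p = 0.0312, the smallest that 6 samples allow), and Hp exceeded Crp in 5 of 6 (exact p = 0.0625). Only the 8 pairs that neighbor each other in the order of the means over all 6 samples were tested, and the smallest adjusted p over them was 0.167, so no such step passed the test. Members farther apart were given no test, but Crp and Orm1 both lay above Saa4 in 6 of 6 samples. Among the 14612 genes tested, Lcn2 ranked 2825 by mean CPM, Hp 8605 and Crp 10422.

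**Figure D1:**
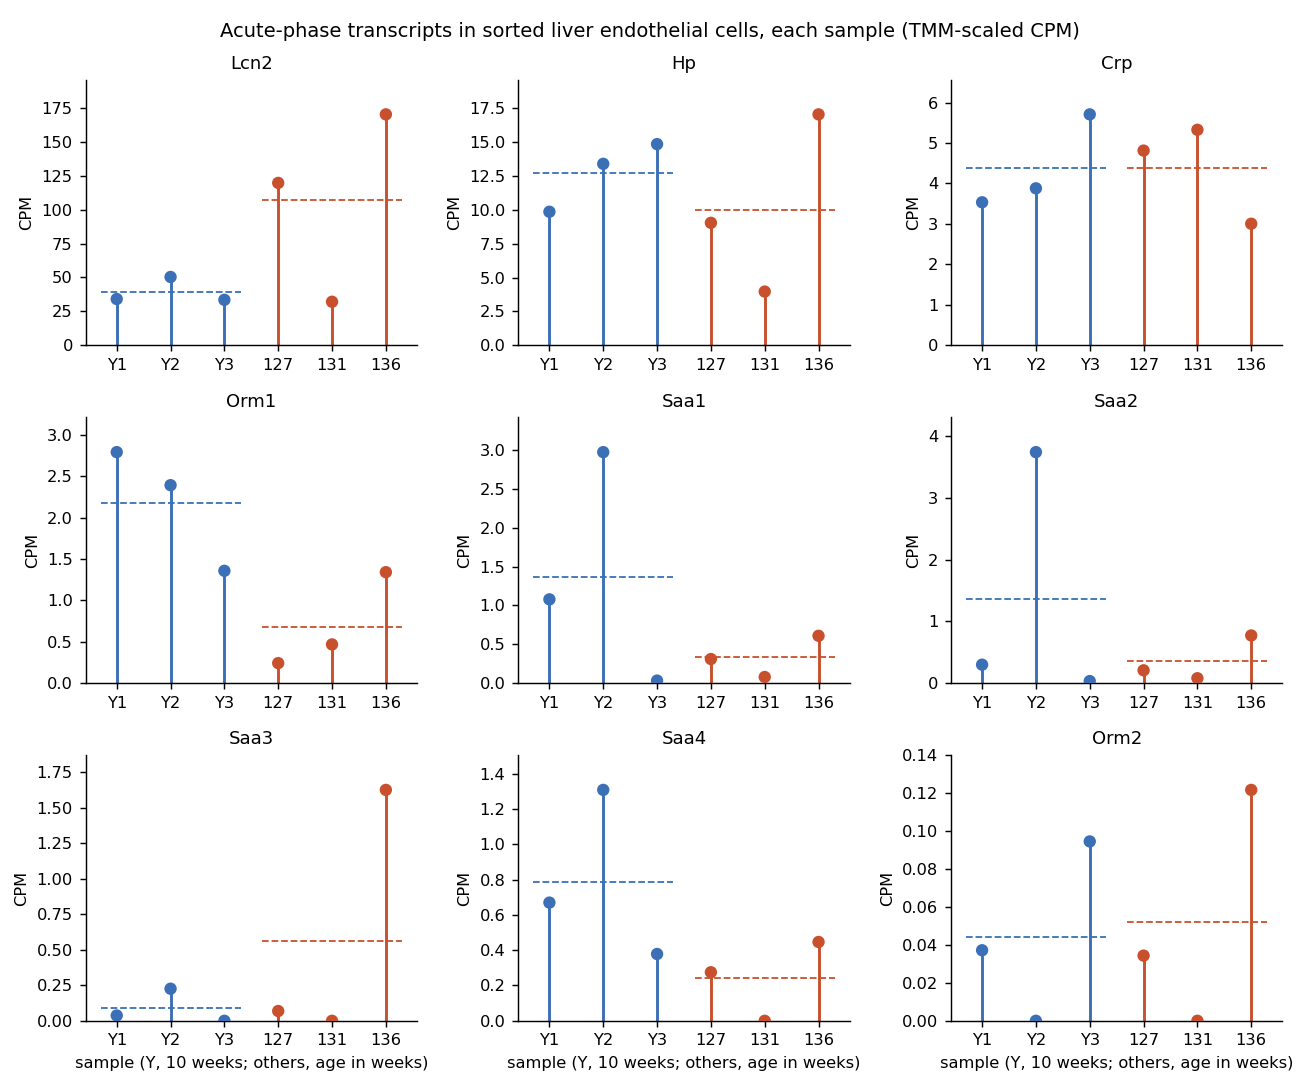
Level in CPM (scaled by TMM; y axis, from 0, a different scale for each gene) of the 9 members in each sample (x axis; Y1 to Y3, young, 10 weeks; 127, 131 and 136, age of the aged samples in weeks). Stems are single samples and dashed lines are means of 3. Lcn2 stands at 120 and 170 CPM in the 127- and 136-week samples and at 32.1 CPM in the 131-week sample, and Saa3 has its level almost wholly in the 136-week sample.

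The comparison of aged with young ECs asks which transcripts differ with age. Of the 8 members that reached 0.5 CPM in at least 1 sample, 0 passed the threshold of an adjusted p of 0.05 and a log2 fold change beyond 1 in the quasi-likelihood test of edgeR, as did 0 of all 14612 genes tested (0.0%). By the same threshold, 0 members were called with DESeq2, against 2.71% of the 18423 genes it tested, and 0 with limma-voom, against 0.103% of all genes. Without adjustment, 2 members had p below 0.05 together with a log2 fold change of more than 1 in size, against 6.62% of all genes. Lcn2 was the 1 member higher in aged ECs, against 5.43% of all genes in that direction, and Orm1 the 1 member lower, against 1.19%. Orm1 was also the 1 member whose 3 aged CPM values all lay below its 3 young values, a separation seen downward in 8.33% and upward in 9.62% of all genes. Only Lcn2, Hp and Crp reached 0.5 CPM in all 6 samples. Saa3 passed the filter through the 136-week sample alone, and Orm2 did not pass it.

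Lcn2, the siderophore-binding lipocalin, had 916, 1116 and 1062 counts in the young samples and 3481, 825 and 4192 counts in the 127-, 131- and 136-week samples. On the CPM scale these were 34.1, 50.4 and 33.5 in young ECs and 119.7, 32.1 and 170.2 in aged ECs. The 127- and 136-week samples stood above every young sample, and the 131-week sample stood below all of them, so the ages overlapped. The means were 39.3 ± 9.57 CPM in young and 107 ± 69.9 CPM in aged ECs (SD, n = 3 each). The corresponding log2 fold change was 1.45 (standard error 0.54, 95% confidence interval 0.19 to 2.70, edgeR unadjusted p = 0.0290, adjusted p = 0.350). On the FPKM scale the levels were 50.0, 73.1 and 49.5 in young and 175, 46.2 and 246 in aged ECs, with the samples in the same order. Without the 131-week sample the log2 fold change was 1.88 (edgeR adjusted p = 0.0611) and without the 136-week sample 0.95 (edgeR adjusted p = 0.732). Within the ribosomal-high and the ribosomal-low libraries, the value of Lcn2 was 0.83 and 1.83 higher in aged ECs on this log2 scale.

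Lcn2 made up 65.1%, 64.3% and 59.9% of all counts on the 9 members in the young samples and 88.9%, 76.4% and 87.2% in the 127-, 131- and 136-week samples. This share was higher in every aged sample than in any young sample. The 8 other members summed to 18.3, 27.9 and 22.5 CPM in young and to 15.0, 9.92 and 25.0 CPM in aged ECs, with overlap. The 131-week sample was thus the lowest of the 6 both for Lcn2 and for the sum of the others.

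Markers of other liver cells differed between the same samples. The 8 pan-leukocyte markers summed to 100 to 104 CPM in young ECs and to 112, 101 and 358 CPM in the 127-, 131- and 136-week samples, and all 8 had a higher fitted level in aged ECs. Lcp1 gave most of each young sum, with 79.3, 86.9 and 81.0 CPM in young and 59.6, 83.7 and 156 CPM in aged ECs. In the 127-week sample 7 of the 8 markers lay above every young sample and 1 below. In the 131-week sample 1 lay above, 5 within and 2 below the young range, and in the 136-week sample all 8 lay above it. Ptprc, which encodes CD45, had 1.56, 1.17 and 1.70 CPM in young and 7.56, 1.28 and 25.6 CPM in aged ECs. The order of the 3 aged samples was the same for Ptprc and for Lcn2, but the order of the 3 young samples was the reverse.

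The 12 Kupffer cell and macrophage markers summed to 128 to 142 CPM in young ECs and to 242, 40.8 and 558 CPM in the 127-, 131- and 136-week samples. They did not share 1 direction, with 8 fitted log2 fold changes above 0 and 4 below. Lyz2, the highest of them, had 30.4, 15.2 and 31.0 CPM in young and 103, 19.4 and 327 CPM in aged ECs. C1qb, the next highest, had 28.8, 58.9 and 33.0 CPM in young and 23.1, 5.25 and 37.3 CPM in aged ECs. The 12 neutrophil markers found in the table summed to 4.01 to 10.6 CPM in young ECs and to 13.2, 7.97 and 62.7 CPM in aged ECs. In the 127-week sample, where Lcn2 was at 119.7 CPM, 5 of the 12 lay above every young sample and 7 within the young range, while in the 131-week sample 5 lay above it and in the 136-week sample 10. Some of these places rest on counts under the floor of 3. Stfa2l1 lay above with 1 count in the 127-week and 2 in the 131-week sample, and Camp with 2 in the latter. S100a9 was nearly level there, at 0.972 CPM. Among those above the young range in the 127-week sample were Csf3r, the receptor for granulocyte colony-stimulating factor, with 7.08 CPM against 0.781 to 2.02 CPM in young ECs, and the calcium-binding proteins S100a8, with 1.79 CPM against 0.284 to 1.45 CPM, and S100a9, with 1.62 CPM against 0.126 to 0.930 CPM. Among those within it were the granule genes Camp and Mmp8, with 0 counts, Ngp, with 2 counts, and Ltf, with 0.619 CPM. Camp, Mmp8 and Ngp were under the floor there, so their place says little. In the 136-week sample S100a9 had 14.3 CPM, Ngp 10.6 CPM and Camp 2.07 CPM.

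The 7 cholangiocyte markers summed to 89.6 to 109 CPM in young and to 193 to 241 CPM in aged ECs. Most of each sum came from Spp1, the osteopontin gene, which other cells also express, with 77.4 to 96.2 CPM in young and 161 to 206 CPM in aged ECs, and without it the sums were 8.45 to 27.98 CPM and 23.5 to 35.0 CPM, with overlap. Of the 13 stellate cell, fibroblast and mesothelial markers 12 were tested, of which 10 had a fitted log2 fold change below 0 and 2 above, with a median of -1.30. Their sums were 133 to 488 CPM in young and 200 to 690 CPM in aged ECs, of which Reln alone gave 69.9 to 181 CPM and 109 to 495 CPM. Without Reln the sums were 62.8 to 333 CPM in young and 91.0 to 195 CPM in aged ECs. Of the genes in these lists 0 passed the adjusted threshold in edgeR, and the part of these cells in the level of Lcn2 was not tested. In bulk RNA of sorted cells, fewer cells of a type and less RNA per cell cannot be told apart.

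**Figure D2:**
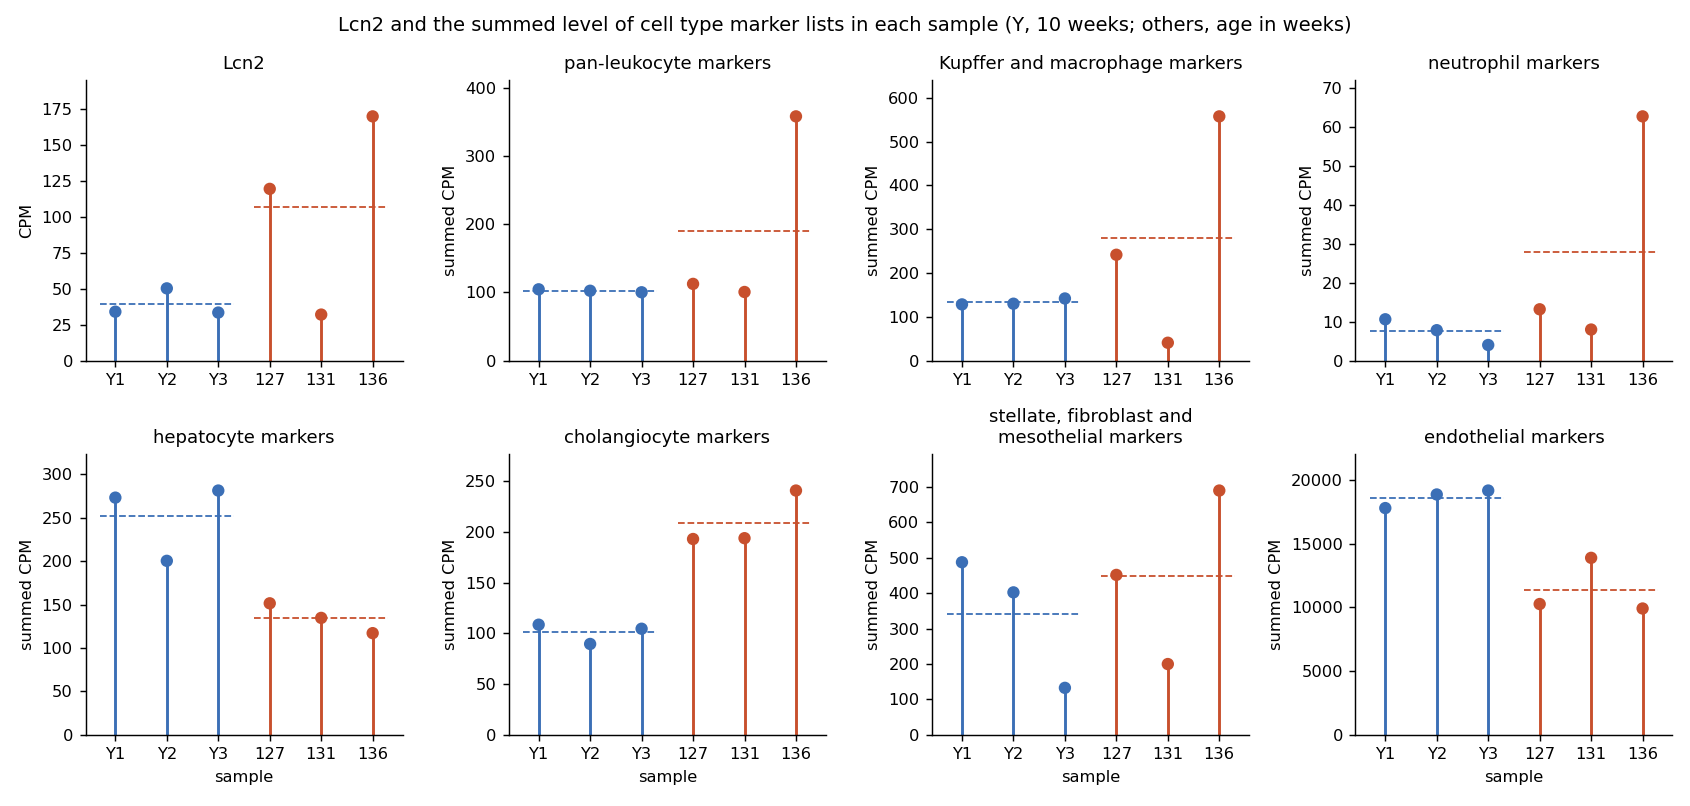
CPM of Lcn2 and summed CPM of the marker lists of 7 cell types (y axes, from 0, each on its own scale) in each sample (x axis; Y1 to Y3, young; 127, 131 and 136, age in weeks). Stems are single samples and dashed lines are means of 3. The leukocyte and macrophage sums are highest in the 136-week sample, at 358 and 558 CPM, and the hepatocyte sum is lower in the 3 aged samples (117 to 152 CPM) than in the 3 young samples (200 to 281 CPM).

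Saa1 and Saa2, the inducible serum amyloid A genes, were low and varied more within an age than between ages. Saa1 had 29, 66 and 1 counts in the young samples and 9, 2 and 15 counts in the 127-, 131- and 136-week samples. Saa2 had 8, 83 and 1 counts in the young samples and 6, 2 and 19 counts in the aged samples. Young replicate 2 was the highest sample and young replicate 3 the lowest sample for both genes. With 1 count each in the latter, under the floor of 3 counts, no fold between these samples of the same age is given. The fitted log2 fold changes were -2.01 for Saa1 (standard error 1.31, 95% confidence interval -5.08 to 1.05, edgeR adjusted p = 0.584) and -1.93 for Saa2 (standard error 1.50, 95% confidence interval -5.45 to 1.59, edgeR adjusted p = 0.659). Without young replicate 2 the value of Saa2 was 1.09 and that of Saa1 was -0.73. Within the ribosomal-high libraries, log2(CPM + 0.1) of aged ECs was lower (-2.42 for Saa1 and -1.65 for Saa2). Of the aged samples among them, the 131-week sample had 2 counts of each gene, also under the floor. Within the ribosomal-low libraries no difference is given, because young replicate 3, with 1 count of each gene, is their only young library.

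Saa1 and Saa2 followed each other across the 6 samples, with 0.276 to 1.27 Saa2 counts for each Saa1 count. As near-copies they can share reads. Of all 75-base windows, the read length used, 0.377% of the Saa1 transcript also occurred in Saa2 without a mismatch. The 2 genes are nevertheless reported as uncertain, because the way the authors counted reads with mismatches or several hits is not given in the sources used here.

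Saa3, the form made mainly outside hepatocytes, had 1, 5 and 0 counts in the young samples and 2, 0 and 40 counts in the 127-, 131- and 136-week samples. The 136-week sample alone stood apart, at 1.62 CPM, while the 0 counts in the 131-week sample allow up to 0.117 CPM. The fitted log2 fold change of 2.71 (standard error 1.86, edgeR adjusted p = 0.607) rested on that sample, without which Saa3 did not reach the filter, and it was 0.12 with limma-voom. The same sample held the highest levels of the macrophage, leukocyte and neutrophil markers given above, and their part in the Saa3 level was not tested.

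Saa4, the constitutive form, had 18, 29 and 12 counts in the young samples and 8, 0 and 11 counts in the aged samples. The highest aged sample, with 0.447 CPM, lay inside the young range of 0.379 to 1.31 CPM. The log2 fold change was -1.68 (standard error 1.12, 95% confidence interval -4.30 to 0.93, edgeR adjusted p = 0.595).

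Orm1, an acid glycoprotein that binds lipophilic compounds in plasma, had 75, 53 and 43 counts in the young samples and 7, 12 and 33 counts in the 127-, 131- and 136-week samples. In CPM these were 2.79, 2.39 and 1.36 in young and 0.241, 0.467 and 1.34 in aged ECs. The ages did not overlap, but young replicate 3 and the 136-week sample were nearly level. The log2 fold change was -1.67 (standard error 0.70, 95% confidence interval -3.32 to -0.025, edgeR unadjusted p = 0.0474, adjusted p = 0.388). It was -1.57 within the ribosomal-high and -2.10 within the ribosomal-low libraries as a difference of mean log2(CPM + 0.1), and the fitted value was -2.61 without the 136-week sample (edgeR adjusted p = 0.388) and -1.26 without the 127-week sample (edgeR adjusted p = 0.530). Orm2, the neighboring copy, had 1, 0 and 3 counts in young and 1, 0 and 3 counts in aged ECs, at or under the floor of 3 counts in every sample, so no fold is given. Of the 75-base windows of Orm1, 13.8% also occur in Orm2, and the transcripts are identical in 91.0% of aligned columns, so reads can be shared between them.

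Hp, which binds free hemoglobin, had 9.86, 13.4 and 14.9 CPM in the young samples and 9.04, 3.97 and 17.1 CPM in the 127-, 131- and 136-week samples. The 131-week sample was the lowest and the 136-week sample the highest of all 6. The log2 fold change was -0.34 (standard error 0.48, 95% confidence interval -1.47 to 0.78, edgeR adjusted p = 0.836), and it was 0.037 without the 131-week sample. Crp, a pentraxin that binds phosphocholine and that mice induce only weakly, had 3.54, 3.88 and 5.71 CPM in young and 4.81, 5.33 and 3.00 CPM in aged ECs. Its means were 4.37 ± 1.17 and 4.38 ± 1.22 CPM (SD, n = 3 each). The log2 fold change of 0.0015 (standard error 0.35, edgeR adjusted p = 1.00) had a 95% confidence interval of -0.81 to 0.81. The 3 samples of each age are thus compatible with a difference in either direction inside this interval.

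**Figure D3:**
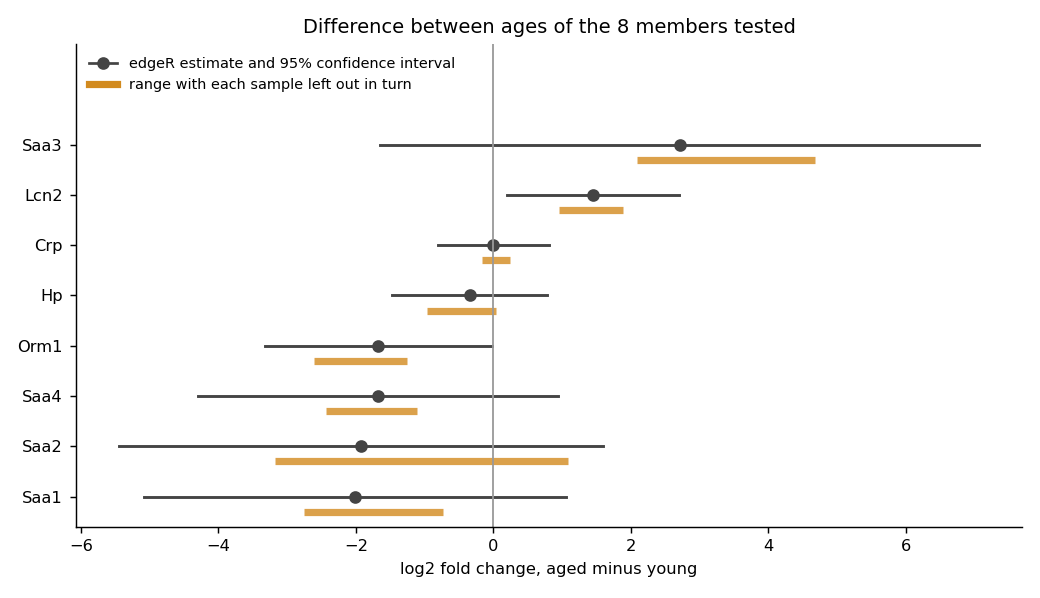
Log2 fold change (x axis, aged minus young) of the 8 members tested (y axis). Points and black lines are the edgeR estimates with 95% confidence intervals, orange bars the range of the estimate when each of the 6 samples is left out in turn. The intervals of Lcn2 (0.19 to 2.70) and Orm1 (-3.32 to -0.025) leave out 0, the left-out ranges of Saa2 (-3.18 to 1.09), Hp and Crp cross it, and the range of Saa3 lacks the fit without the 136-week sample, in which Saa3 did not reach the filter.

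Hepatocyte transcripts were present in all 6 sorted samples, with a lower summed level in every aged sample than in any young sample. The 20 hepatocyte markers summed to 273, 200 and 281 CPM in young and to 152, 135 and 117 CPM in aged ECs, and the 19 that were tested each had a fitted log2 fold change below 0, with a median of -0.92 against 0.0098 over all genes tested and 0 past the adjusted threshold. Alb, which encodes albumin, had 59.2, 40.2 and 74.7 CPM in young and 42.3, 45.7 and 36.5 CPM in aged ECs. To set each member against hepatocyte RNA within a sample, its counts were divided by the Alb counts, which removes any scaling between libraries. Lcn2 had 57.6, 125 and 44.9 counts for each 100 Alb counts in the young samples and 283, 70.2 and 466 in the 127-, 131- and 136-week samples.

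The mean log2 ratio of Lcn2 to Alb was 1.61 higher in aged ECs (two-sided exact permutation test, p = 0.2), that of Orm1 was -1.48 relative to young ECs (exact p = 0.2) and that of Crp 0.44 (exact p = 0.2). The other 5 ratios had exact p-values of 0.5 to 1. The smallest p for 3 samples against 3 is 0.1. Relative to Alb, the smallest adjusted p over the 8 ratios was 0.533, and the ages overlapped for each of the 8 members. The difference of Hp was -0.11 and that of Saa2 was -0.13. Both turned positive with Apoa1, which encodes the main protein of high-density lipoprotein, in place of Alb (0.38 and 0.37). With Apoa1 the difference of Lcn2 was 2.11 (exact permutation test, unadjusted p = 0.1). With Ttr and with the summed hepatocyte markers it was 1.72 and 2.07 (exact p = 0.2 each). The difference of Crp was 0.89 with the summed hepatocyte markers (exact p = 0.1) and 0.93 with Apoa1 (exact p = 0.2).

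**Figure D4:**
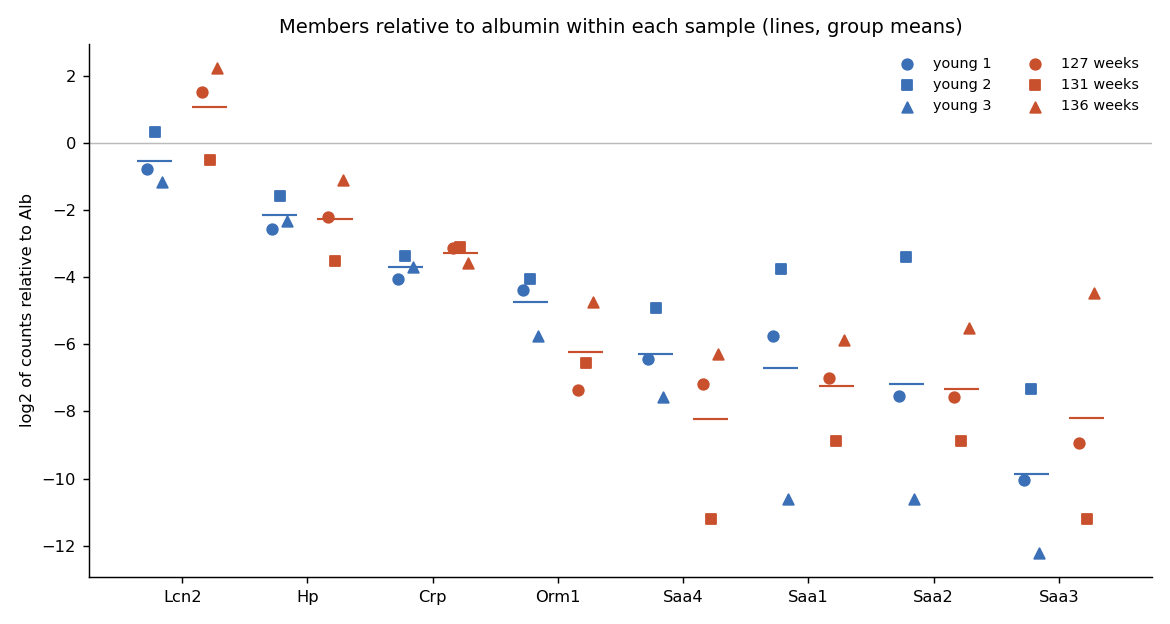
Log2 of the counts of each member relative to the counts of Alb in the same sample (y axis, 0.5 added to each count) for the 8 members tested (x axis). Symbols are single samples, blue for young and red for aged, and horizontal lines are means of 3. In the 127- and 136-week samples Lcn2 lies above Alb (283 and 466 counts for each 100 Alb counts), and each member has overlapping ages.

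The other positive acute-phase genes, those induced during inflammation, did not share 1 direction. Most encode plasma proteins, but the list also holds Mt1, Mt2 and Steap4, which do not. Of 26 listed genes 24 were tested, and 11 had a fitted log2 fold change above 0 and 13 below, with a median of -0.23. By the adjusted threshold 0 passed. Hamp, the iron hormone hepcidin, had 0.126 to 0.670 CPM in young and 2.92, 1.13 and 7.43 CPM in aged ECs (log2 fold change 3.42, standard error 0.89, edgeR adjusted p = 0.250). On the CPM scale the ages did not overlap for Hamp, for Cp or for C3. Cp, the copper-carrying ferroxidase ceruloplasmin, had 98.3, 117.7 and 62.3 CPM in young and 325, 118.6 and 412 CPM in aged ECs (log2 fold change 1.62, standard error 0.45, edgeR adjusted p = 0.256), with the 131-week sample lowest of the aged samples, as for Lcn2. For Cp young replicate 2 and the 131-week sample were nearly level, and on the FPKM scale the ages overlapped (28.7 and 28.4 FPKM in these samples). C3, the central complement component, had a log2 fold change of 1.45 (edgeR adjusted p = 0.303), and Il1rn, the IL-1 receptor antagonist, of 2.81 (edgeR adjusted p = 0.301), with overlap between ages for Il1rn.

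On the lower side of this list, Serpina3k, a serine protease inhibitor, had 37.0, 35.3 and 81.7 CPM in young and 10.3, 6.73 and 5.03 CPM in aged ECs (log2 fold change -2.80, standard error 0.42, edgeR adjusted p = 0.177). The fibrinogen chains Fgb and Fgg, which are also among the hepatocyte markers, had log2 fold changes of -1.23 and -0.85 (edgeR adjusted p = 0.243 and 0.364). In all, 6 of the 24 tested genes of the list had their 3 aged values below their 3 young values, against 8.33% of all genes. Another 3, counting Cp, had them above on the CPM scale, against 9.62% of all genes.

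The negative acute-phase genes, whose proteins decrease in plasma during inflammation, were 11 genes, all tested, of which 2 had a fitted log2 fold change above 0 and 9 below, with a median of -0.58 and 0 past the adjusted threshold. Apoa4, an apolipoprotein, had 1.12 to 2.24 CPM in young and 0.389 to 0.731 CPM in aged ECs (log2 fold change -1.72, edgeR adjusted p = 0.302). Fetub, a protease inhibitor, had a log2 fold change of -1.07 (edgeR adjusted p = 0.407) and Alb of -0.48 (edgeR adjusted p = 0.449). The 2 genes above 0 were Igf1, the insulin-like growth factor (1.01), and Trf, the plasma iron carrier transferrin (0.33). Alb, Ahsg, Apoa1 and Ttr are in the hepatocyte list as well, so these lists are not independent.

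Among 30 genes of the IL-6 and IL-1 signaling that drives the acute phase, 29 were tested, with 18 above 0 and 11 below, a median log2 fold change of 0.21 and 0 past the adjusted threshold. Il6, the cytokine itself, had 6.996, 4.56 and 1.04 CPM in young and 10.4, 26.4 and 58.8 CPM in aged ECs (log2 fold change 2.93, standard error 0.81, edgeR adjusted p = 0.256). Socs3, the feedback inhibitor of gp130 signaling, had 868, 1025 and 939.5 CPM in young and 1256, 1795 and 2682 CPM in aged ECs (log2 fold change 1.02, standard error 0.29, edgeR adjusted p = 0.256). Nfkbiz, a nuclear IkB protein needed for Lcn2 induction by IL-1, had 477, 579 and 712 CPM in young and 1009, 1103 and 1746 CPM in aged ECs (log2 fold change 1.13, standard error 0.27, edgeR adjusted p = 0.235).

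For these 3 genes every aged sample lay above every young sample, and the 127-week sample was the lowest of the aged samples, whereas for Lcn2 the 131-week sample was. The 127-week library is also the only ribosomal-low aged library, so sample and library set cannot be told apart. Within the ribosomal-high and the ribosomal-low libraries, the difference of Il6 was 2.78 and 3.20. That of Socs3 was 1.22 and 0.42, and that of Nfkbiz 1.40 and 0.50. Lif and Nfkbia also had no overlap on the upper side, with within-set differences of 1.04 and 0.23 for Nfkbia. In all, 5 of the 29 tested genes of the list lay higher without overlap and 2 lower, against 9.62% and 8.33% of all genes. On the lower side, Jak1, the kinase bound to gp130, had 1484 to 2338 CPM in young and 1040 to 1312 CPM in aged ECs (log2 fold change -0.61, edgeR adjusted p = 0.350), and Il6st, which encodes gp130, 3457 to 4221 and 1865 to 3261 CPM (log2 fold change -0.47, edgeR adjusted p = 0.510). The difference of Jak1 was -0.30 within the ribosomal-high and -1.17 within the ribosomal-low libraries. Osmr, the oncostatin M receptor, had a log2 fold change of -0.48 (edgeR adjusted p = 0.552), with overlap between ages. Il1b, a cytokine made mainly by myeloid cells, had 4.24, 3.02 and 6.21 CPM in young and 19.7, 2.29 and 40.2 CPM in the 127-, 131- and 136-week samples. The aged samples were in the same order as for Lcn2 and Ptprc, but the young samples were in the reverse of their order for Lcn2.

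**Figure D5:**
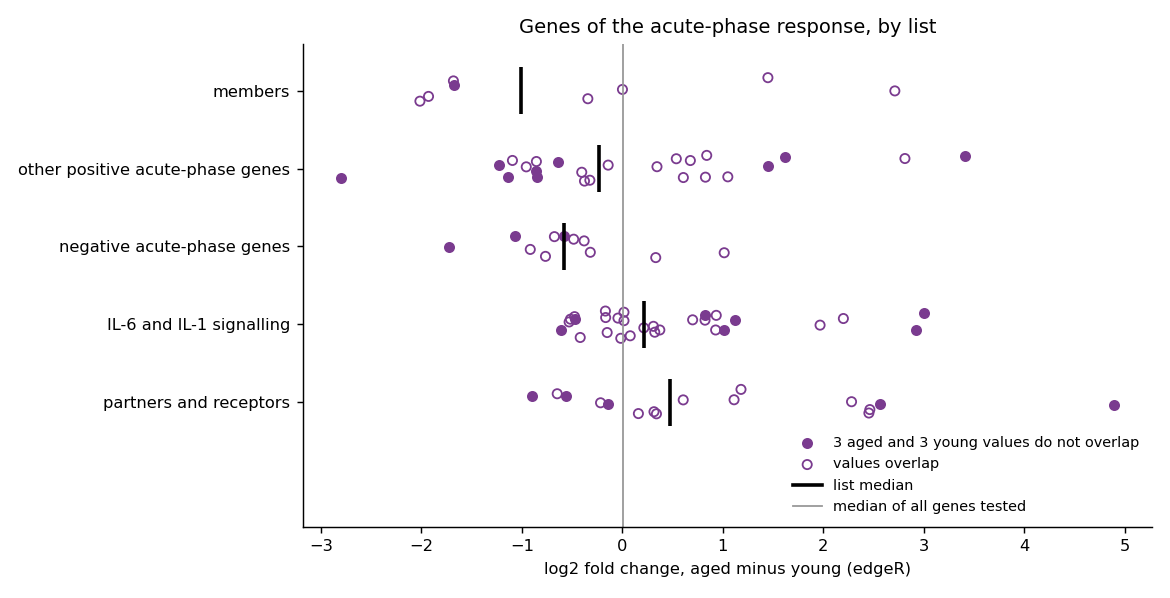
Log2 fold change (x axis, aged minus young, edgeR) of the tested genes of the members and of 4 lists of related genes (y axis). Each circle is a gene, filled where the 3 aged and 3 young values do not overlap, black bars are list medians and the gray line is the median of all genes tested (0.0098). The medians run from -1.01 for the members to 0.47 for the binding partners and receptors, and genes lie on both sides of 0 in every list.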

How the data were processed

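RNA-seq of 3 samples of sorted liver ECs from young mice and 3 from aged mice was analyzed. Per the labels and the study's methods, the authors called bases with CASAVA (1.8.2), aligned 75-base single-end reads to mm9 with TopHat2 (2.1.0) and deposited whole-number read counts per gene symbol, without normalization. FPKM values, scaled between samples by Cuffnorm (2.2.1), were deposited in a separate table. The counting program, its annotation and the use of strand are not given in the sources used here, so overlapping and antisense genes are uncertain.

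Genes with at least 0.5 CPM in at least 1 sample were kept, scaled by TMM and compared with the quasi-likelihood test of edgeR (4.0.16, R 4.3.3) with Benjamini-Hochberg adjustment over all 14612 genes. The test was tried on simulated counts. A standard error is the log2 fold change over the square root of the F statistic. Single ratios were compared by exact permutation. Alternatives used DESeq2 (1.42.0), limma (3.58.1), other normalizations and filters, log2(FPKM + 0.1) and log2(FPKM + 1), a term for the library set and the removal of each sample. No replicate pair of an age was alike enough to be 1 library (smallest chi-square per degree of freedom, 21.3). Samples are named by replicate number or age, and the labels do not say whether a sample is 1 mouse.

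The members and lists were chosen with earlier results of these data known. Named genes are the members, up to 3 genes of each list with the smallest p in each direction, up to 3 markers with the highest CPM, and the 5 genes whose log2(CPM + 1) correlated best with Lcn2, Hp or Crp. Other genes named (Pecam1, Ptprc, Lif, Nfkbia, Il1b, C3, S100a8, Ngp, Ltf, Mmp8, Fpr1, Mmp9, Fcgr1, Fcgr3, Ttr, Cd163 and Slc22a17) were chosen after their values were seen, as were remarks on single samples. Promoter sequences are from RefSeq. Hp and Orm1 had no entry.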

Additional observations from a re-analysis of the deposited data

How the results depend on the processing

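Members past the adjusted threshold numbered 0 under all 17 alternatives, while the number of all genes past it was 0 with edgeR, 415 higher and 85 lower with DESeq2, 13 and 2 with limma-voom, 3 and 1 without the filter, 1 and 0 with log2(FPKM + 0.1), 1 and 1 with a term for the library set and 1 and 0 without the 131-week sample. Without adjustment, members with p below 0.05 together with a log2 fold change of more than 1 in size numbered 2, and 0 to 2 when a sample was left out. With limma-voom, with either FPKM pseudocount and with the term for the library set only 1 was left, Orm1. In these settings the unadjusted p of Lcn2 was 0.0669 (limma-voom), 0.0967 (limma on log2(FPKM + 0.1)), 0.114 (limma on log2(FPKM + 1)) and 0.0513 (edgeR with the library set). The number without overlap between ages was 1, and 1 to 3 when a sample was left out. The share of all genes without overlap was 17.9% with every sample. It was not computed with a sample left out, where fewer values are easier to separate. The log2 fold change of Crp, 0.0015, changed sign with DESeq2 (-0.0091), DESeq2 size factors (-0.0082), no filter (-0.0040), log2(FPKM + 0.1) (-0.024) and log2(FPKM + 1) (-0.016), and ran from -0.16 to 0.24 when a sample was left out. Sign changes when a sample was left out also occurred for the log2 fold changes of Saa2 (-3.18 to 1.09) and Hp (-0.96 to 0.037) and for the log2 ratios to Alb of Saa1 (-2.50 to 0.94), Saa2 (-1.84 to 1.76), Saa3 (-0.20 to 3.16) and Hp (-0.71 to 0.51). The ratios turned positive with Apoa1 (Saa2 0.37, Hp 0.38) and with the summed hepatocyte markers (Saa2 0.33, Hp 0.34) in place of Alb. Lcn2 kept its direction in all 17 alternatives (0.95 to 1.88, adjusted p 0.0611 to 0.732 over edgeR, DESeq2 and limma), as did Orm1 (-2.61 to -1.18, adjusted p 0.178 to 0.711). Saa3 could not be fitted without the 136-week sample, nor Saa1, Saa2, Saa3 and Saa4 with a filter of 1 CPM in 3 samples. Scaling by total counts moved the median of all genes to 0.075. The cause of these changes was not tested. No paired analysis was possible because the ages share no replicate numbers in the labels. Depth limits Saa1, Saa2, Saa3, Saa4 and Orm2, which had counts at or under the floor of 3 in at least 1 sample, while Lcn2, Hp, Crp and Orm1 were above it in every sample.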

Other observations

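Of 18 listed binding partners and receptors of the acute-phase proteins 16 were tested, and 11 had a fitted log2 fold change above 0 and 5 below, against 7462 of all 14612 genes above 0, with a median of 0.47 and 0 past the adjusted threshold. The summed CPM of the list was lower in every aged sample (1784, 2662 and 2555 in the 127-, 131- and 136-week samples) than in any young sample (2910 to 3199). Without Fcgr2b, the highest of its genes, the sums overlapped (1201, 1423 and 2094 CPM in aged and 1599 to 1735 CPM in young ECs). Fpr1, Fpr2, Mmp9, Fcgr1 and Fcgr3, which myeloid cells express, each had their highest level in the 136-week sample, as did the leukocyte markers, whose part in these levels was not tested. Olr1, a scavenger receptor for oxidized lipoprotein that also binds C-reactive protein, had 0.856 to 2.14 CPM in young and 5.40, 3.97 and 14.5 CPM in the 127-, 131- and 136-week samples (log2 fold change 2.57, standard error 0.62, edgeR adjusted p = 0.235). Fpr2, a formyl peptide receptor that binds serum amyloid A, had 0 to 0.0315 CPM in young and 0.344, 0.0389 and 1.10 CPM in aged ECs. It passed the filter through the 136-week sample alone. Its counts were 10 in the 127-week sample and under the floor of 3 in the young and 131-week samples. Ager, a receptor that also binds serum amyloid A, had a log2 fold change of 2.28 (edgeR adjusted p = 0.368), with the 136-week sample at 13.6 CPM. On the lower side, Fcgr2b, an inhibitory Fc receptor of sinusoidal ECs to which C-reactive protein can bind, had 1311 to 1477 CPM in young and 582, 1239 and 461 CPM in aged ECs (log2 fold change -0.90, edgeR adjusted p = 0.374). Tlr4, the endotoxin receptor, had a log2 fold change of -0.56 (edgeR adjusted p = 0.325), and Scarb1, the receptor for high-density lipoprotein, of -0.15 (edgeR adjusted p = 0.724), and the ages did not overlap for either gene. In all, 3 of the 16 tested genes of the list lay lower without overlap and 2 higher, against 8.33% and 9.62% of all genes. Slc22a17, a receptor for Lcn2, was at 8.20 to 19.9 CPM in all 6 samples, and Cd163, the macrophage receptor for haptoglobin bound to hemoglobin, at 0.162 to 2.37 CPM.

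Over the 6 samples, the genes whose log2(CPM + 1) followed Lcn2 most closely among 12451 genes were Lrrfip1 (Pearson r 0.998), Prkcz (0.996), Has1, a hyaluronan synthase (0.995), Stc2 (0.993) and Dlgap5 (0.992). Lrrfip1 had 44.1 to 55.8 CPM in young and 87.7, 44.2 and 105 CPM in aged ECs. For Hp the closest were Pkmyt1 (0.997), Nfkb1, a subunit of NF-kB (0.991), Spats2l (0.988), Arhgef39 (0.988) and Ipo9 (0.984). For Crp they were Pld3 (0.993), Atp6ap2 (0.988), Surf6 (0.984), Xpot (0.982) and Sos2 (0.975). The correlation of Lcn2 was 0.94 with Ptprc, at rank 139, and -0.70 with Alb, while that of Hp with Alb was 0.043. These are descriptions of 6 libraries that differ in cell content, with no test, and the closest of many genes is expected to correlate strongly.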
